A study of Oryzias latipes with 2 samples.

Results

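The genes described here are the 100 genes of the adult medaka pituitary that stood highest above background in all of 6 hormone-producing cell types at once, taken from 17475 ranked genes. The level of a gene in a cell type was the sum of its unique molecular identifiers (UMIs, each standing for 1 captured transcript) over the cells of that type, divided by all UMIs of the type and multiplied by 1000000 (CPM). The 6 types were Lh-gonadotropes, Fsh-gonadotropes, Lactotropes, Somatotropes, Melanotropes and Corticotropes. The score of a gene was the log2 of its lowest CPM plus 10 among these 6 types, minus the log2 of its CPM plus 10 in Uncharacterized cells or in Red blood cells, whichever was higher. This higher value is called the background below, and the lower score of the female and male libraries ranked the genes. The ranking left out 79 of the 17554 genes measured in both libraries, namely the GFP cassette, *cga*, the hormone-encoding genes and the marker genes of the deposited tables. Levels in these 8 cell types chose the members, so they are given as a description, without a test.

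The libraries were made with a kit that counts the 3′ ends of transcripts, from pituitary cells of 24 females and of 23 males, pooled by sex. All fish were adults of about 8 months, received no treatment that the labels name, and had the genotype d-rR lhb:GFP, a transgenic line with GFP driven by the *lhb* promoter. The female library held 2592 cells with 11750195 UMIs and the male library 3804 cells with 17691130 UMIs, sorted by the authors into 13 annotated types. With 1 pool per sex there were no replicates, no p-value was computed, and the variation between fish cannot be seen.

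The 95% intervals given here are exact Poisson intervals for sums of UMIs and exact Clopper-Pearson intervals for shares of cells, and both cover counting error only. Where 0 cells had a UMI or reached a limit, the highest share that this allows is given as 3 cells of the total instead. Each of the 6 types held its own hormone-encoding gene at a high level, for example *prl* at 247502 CPM in female and 194486 CPM in male Lactotropes. The same gene was found at 4230 CPM in female and 2998 CPM in male Uncharacterized cells, and the part of free RNA in background levels was not tested. Male Thyrotropes held *pomca* at 54969 CPM beside *tshba* at 71026 CPM. Of the annotated male Somatolactotropes, only 13 of 38 cells had at least 10 UMIs of *sl*, compared to 15 of 15 in the female library. The libraries shared 16 cell barcodes.

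Endocrine cells of the pituitary make peptide and protein hormones in large amounts. These are synthesized on the rough endoplasmic reticulum, processed and packed into granules in the Golgi apparatus, and released by regulated exocytosis upon a signal from the brain. Each cell type is known for its own hormone, while this secretory machinery is shared between types. The deposited matrices give Ensembl identifiers alone for all 100 members, so no name, role or sequence is given to any of them here, and the genes known for these steps could not be looked up.

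Members differed widely in how far they stood above background. The score was 2.09 for ENSORLG00000001705, at rank 1, had a median of 0.52 over the 100 members and fell to 0.27 at rank 100. A score of at least 1, which means at least a 2-fold difference in all 6 types of both libraries, was reached by 13 members and by 0.0997% of the 13036 genes with at least 10 UMIs in each library, the genes called "all genes" below. All 13 such genes are members, as the rule fixes. Counting intervals of all 6 types lay above those of both background types, in both libraries, for 24 members (0.184% of all genes). All 24 such genes are members too, chosen on these same levels, so this share gives no further measure. The limit at 100 fell on a slope without a step, since 226 ranked genes had a score above 0. At rank 99 ENSORLG00000002312 had a lowest level of 6.74 CPM against a background of 2.96 CPM in the female library, and at rank 101, just outside, ENSORLG00000010911 had 7.87 against 3.45 CPM. In the male library both of these genes had 5.13 CPM against 2.56 CPM. Ranks 99, 100 and 101 were tied at a score of 0.269, so their order follows the identifiers alone. The lower score was that of the female library for 71 members and that of the male library for 29.

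**Figure D1:**
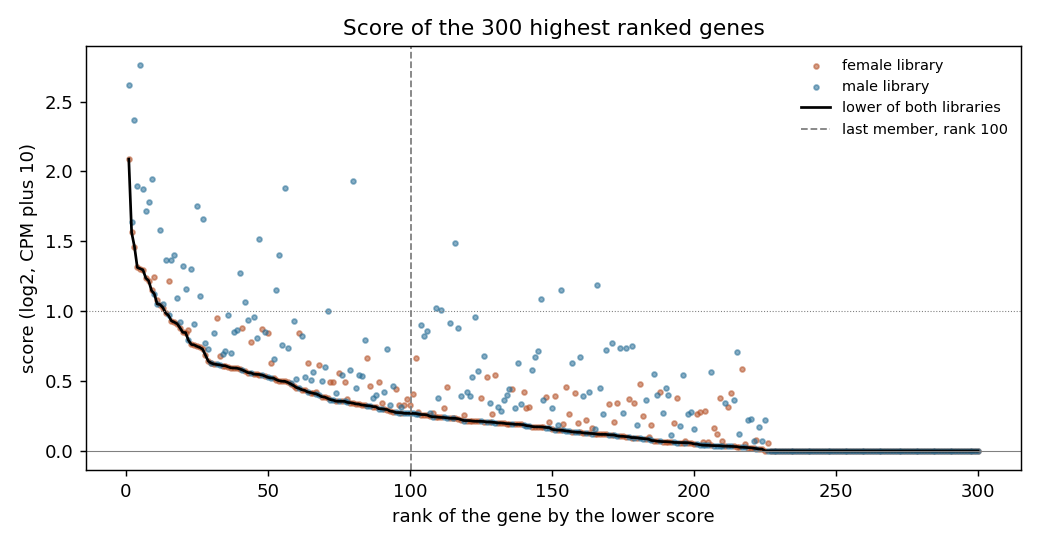
Score of the 300 highest ranked genes (y axis, log2 of CPM plus 10) against rank (x axis), as points for the female and the male library and as a line for the lower of both. The line falls from 2.09 at rank 1 to 0.27 at rank 100 (dashed), passes 1 (dotted) after rank 13 and reaches 0 after rank 226. Most male points of the 100 members lie above it.

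The members made up a small part of the RNA, 1.24% of all UMIs in the female and 1.05% in the male library. The 3 with most UMIs held 29.9% of this in females and 29.8% in males, and ENSORLG00000026625 and ENSORLG00000024375 were among the 3 in both. All 100 members had at least 10 UMIs in each library. In the type where a member was lowest, the median count was 20 UMIs in females and 25.5 UMIs in males, and fewer than 10 UMIs were counted for 32 and 19 members. The levels of these members in their lowest type are therefore loosely bounded.

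The highest ranked gene, ENSORLG00000001705, was present in all hormone-producing types, at levels that differed by more than 2-fold among them. In the female library its level was 286 CPM in Somatotropes (113 UMIs, interval 236 to 344), 298 in Lh-gonadotropes, 405 in Corticotropes, 458 in Fsh-gonadotropes, 500 in Melanotropes and 613 CPM in Lactotropes (934 UMIs, 574 to 653). In the male library the same types gave 260, 240, 419, 458, 521 and 555 CPM. Against these stood 59.6 CPM in female (interval 49.5 to 71.3) and 28.1 CPM in male Uncharacterized cells, and 26.9 and 30.7 CPM in Red blood cells. In both libraries the counting interval of the lowest of the 6 types lay above those of both background types. At rank 3, ENSORLG00000026625 had the most UMIs of all members, and it was lowest in Lactotropes (1071 CPM in females and 758 CPM in males) and highest in Melanotropes (3989 and 3408 CPM). Its background was 383 CPM in female but 138 CPM in male Uncharacterized cells.

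**Figure D2:**
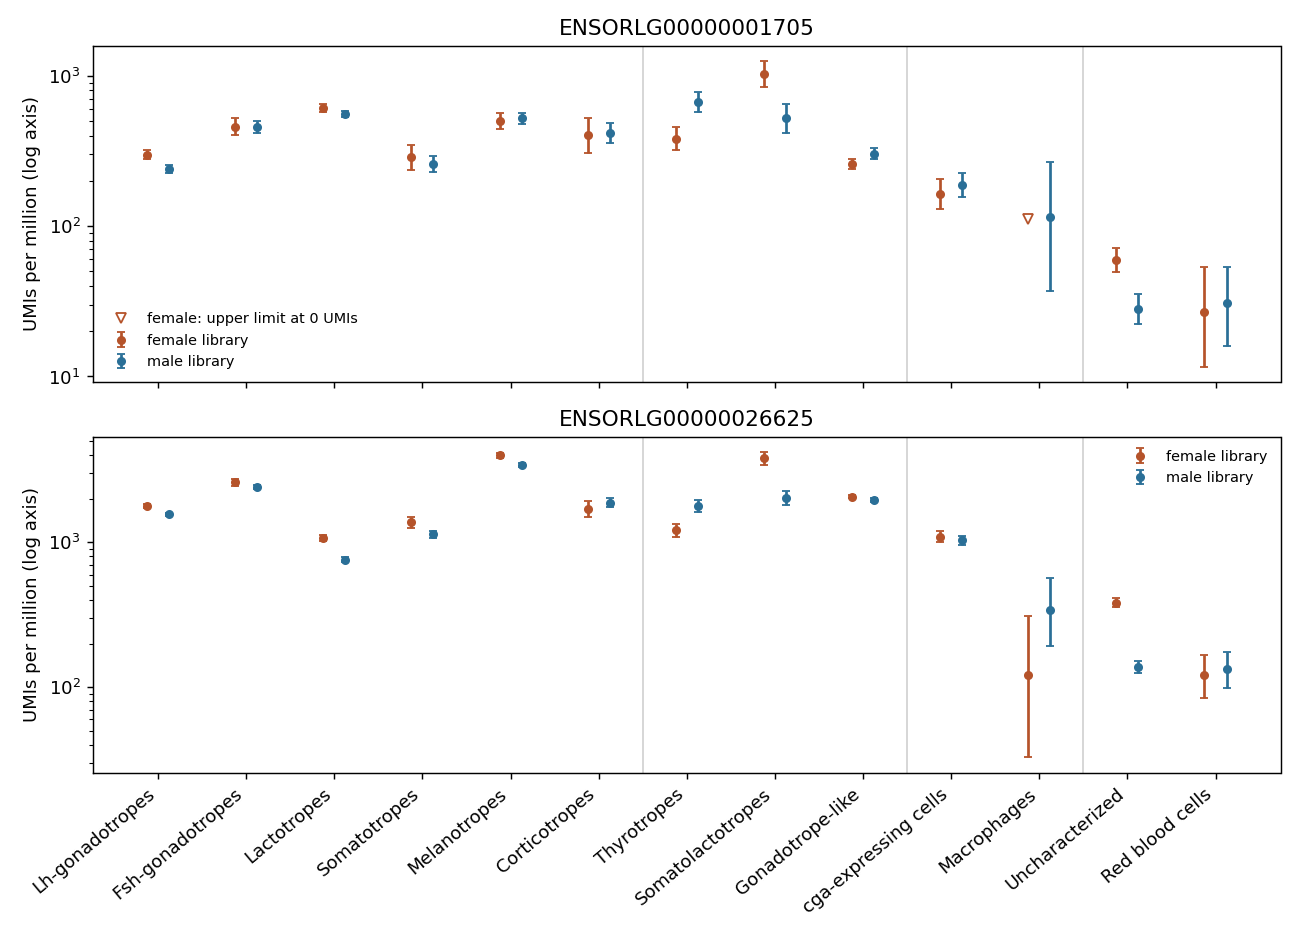
Level of 2 members (CPM, log axis) in the 13 annotated types of the female and male libraries, with exact Poisson 95% intervals, and a triangle for the upper limit where no UMI was counted. Grey lines part the 6 types of the ranking, the 3 further endocrine types, the 2 other types and the 2 background types. ENSORLG00000001705 lies between 240 and 613 CPM in the 6 types and at or under 59.6 CPM in the background types, and ENSORLG00000026625 is highest in Melanotropes and in female Somatolactotropes.

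The number of members found in single cells follows from the same UMIs that chose them, and is given for the 6 types and the background types as a description. To compare cells at the same depth, every cell was thinned to 2000 UMIs, which left out 478 female and 714 male cells with fewer. At this depth, the median number of the 100 members with at least 1 UMI ranged from 14.5 (Melanotropes) to 20.5 (Corticotropes) among the 6 types in females, and from 13 (Melanotropes) to 18 (Corticotropes and Fsh-gonadotropes) in males. In the 3 endocrine types outside the ranking, described below, it was between 16 and 21. Uncharacterized cells had a median of 3 in both libraries, and Red blood cells a median of 1, although only 22 of 371 female and 27 of 559 male Red blood cells were deep enough. ENSORLG00000001705 had a UMI in 66.8% of thinned female Lactotropes (123 of 184, interval 59.5 to 73.6%) and in 65.9% of male ones, compared to 8.14% (36 of 442, 5.77 to 11.1%) and 4.28% of Uncharacterized cells. Before thinning these shares were 91.1% and 91.9% in Lactotropes (median depth 6447 and 5763 UMIs) and 14.9% and 7.34% in Uncharacterized cells (3381 and 2830 UMIs). In Red blood cells 0 of 22 female cells had one, which allows a share of up to 13.6%. Across the 6 types the share in thinned female cells ran from 42.1% in Lh-gonadotropes to that of the Lactotropes.

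**Figure D3:**
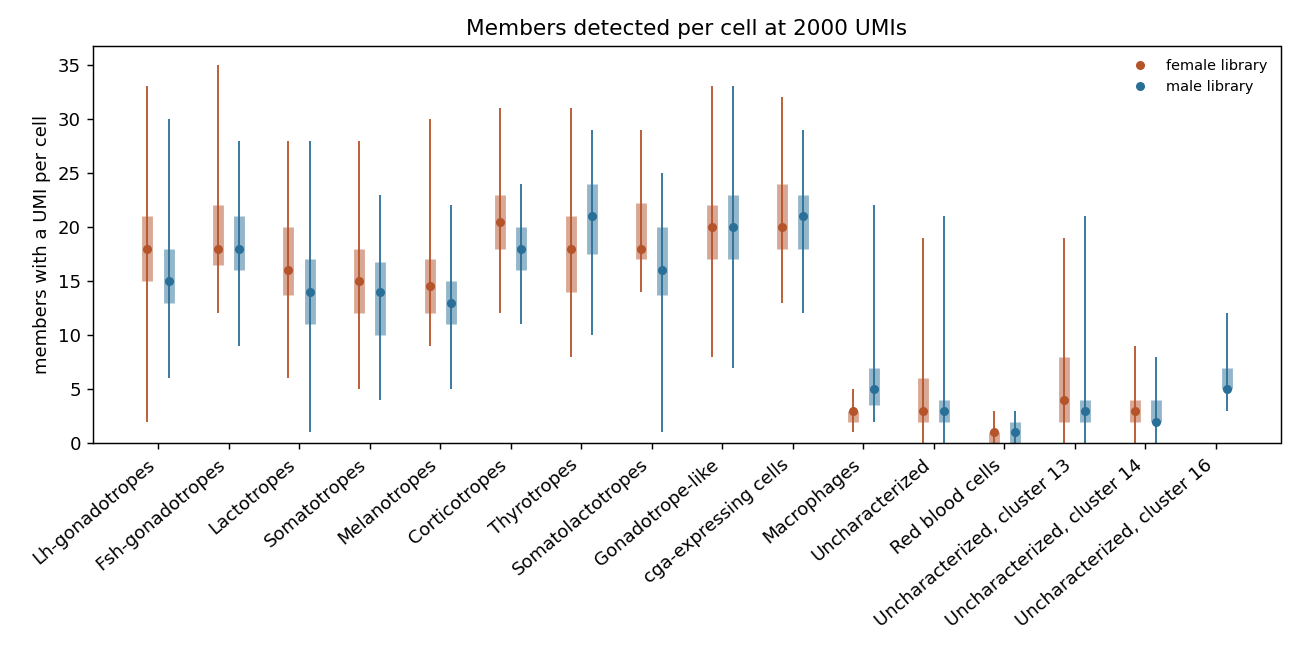
Number of the 100 members with at least 1 UMI per cell (y axis) after thinning each cell to 2000 UMIs, by annotated type and, at the right, by cluster of the Uncharacterized cells. Dots are medians, thick bars run from the lower to the upper quartile and thin lines from the lowest to the highest cell. Medians are 13 or more in every hormone-producing type and 5 or less in Macrophages, Uncharacterized cells and Red blood cells.

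Thyrotropes, Somatolactotropes and Gonadotrope-like cells did not enter the choice of members, so their own levels were not set by the ranking. These 3 types also held hormone-encoding genes of types in the ranking. Gonadotrope-like cells had *lhb* at 14793 CPM in females and 23755 CPM in males. Thyrotropes had *prl* at 1347 and 17981 CPM, and Somatolactotropes had *lhb* at 853 and 9493 CPM. The part of RNA from other cell types in the member levels was not tested. In Thyrotropes, 66 of the 100 members were at least 2-fold above background in both libraries, compared to 2.54% of all genes, and 97 were above it by any amount (19.7%). In Somatolactotropes these numbers were 54 (2.16%) and 89 (13.8%), and in Gonadotrope-like cells 86 (4.79%) and 100 (34.3%). At least 2-fold below background in both libraries were 0 members in any of the 3 types, compared to 9.33%, 11% and 8.74% of all genes. At a pseudocount of 10, a gene with a background under 10 CPM in either library cannot be 2-fold below it, even at 0 UMIs. Members with such a background, for example ENSORLG00000007036 with 1.97 CPM in females and 0.37 CPM in males, could not be counted. The 0 is thus partly fixed by the choice of members. With a pseudocount of 50 in place of 10, which weighs down low levels, the members at least 2-fold above were 31 (0.706% of all genes), 26 (0.598%) and 37 (1.53%). In all 3 types together, 40 members were at least 2-fold above background in both libraries, compared to 0.606% of all genes. The median log2 level over background of the members was 1.43 in female and 1.73 in male Thyrotropes, where that of all genes was −0.11 and −0.26. It was 1.30 and 1.77 in Somatolactotropes (all genes −0.42 and −0.23), and 1.61 and 2.0 in Gonadotrope-like cells (−0.06 and −0.04). The background types in these ratios are those of the ranking, so the ratios are only partly independent of it. Most of the levels in the 3 types lay within the range that the member showed over the 6 types of the ranking, in 76 female and 71 male members for Thyrotropes, 66 and 65 for Somatolactotropes, and 66 and 52 for Gonadotrope-like cells. No share of all genes is given beside these counts of levels within the range, so they do not set members apart from other genes.

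**Figure D4:**
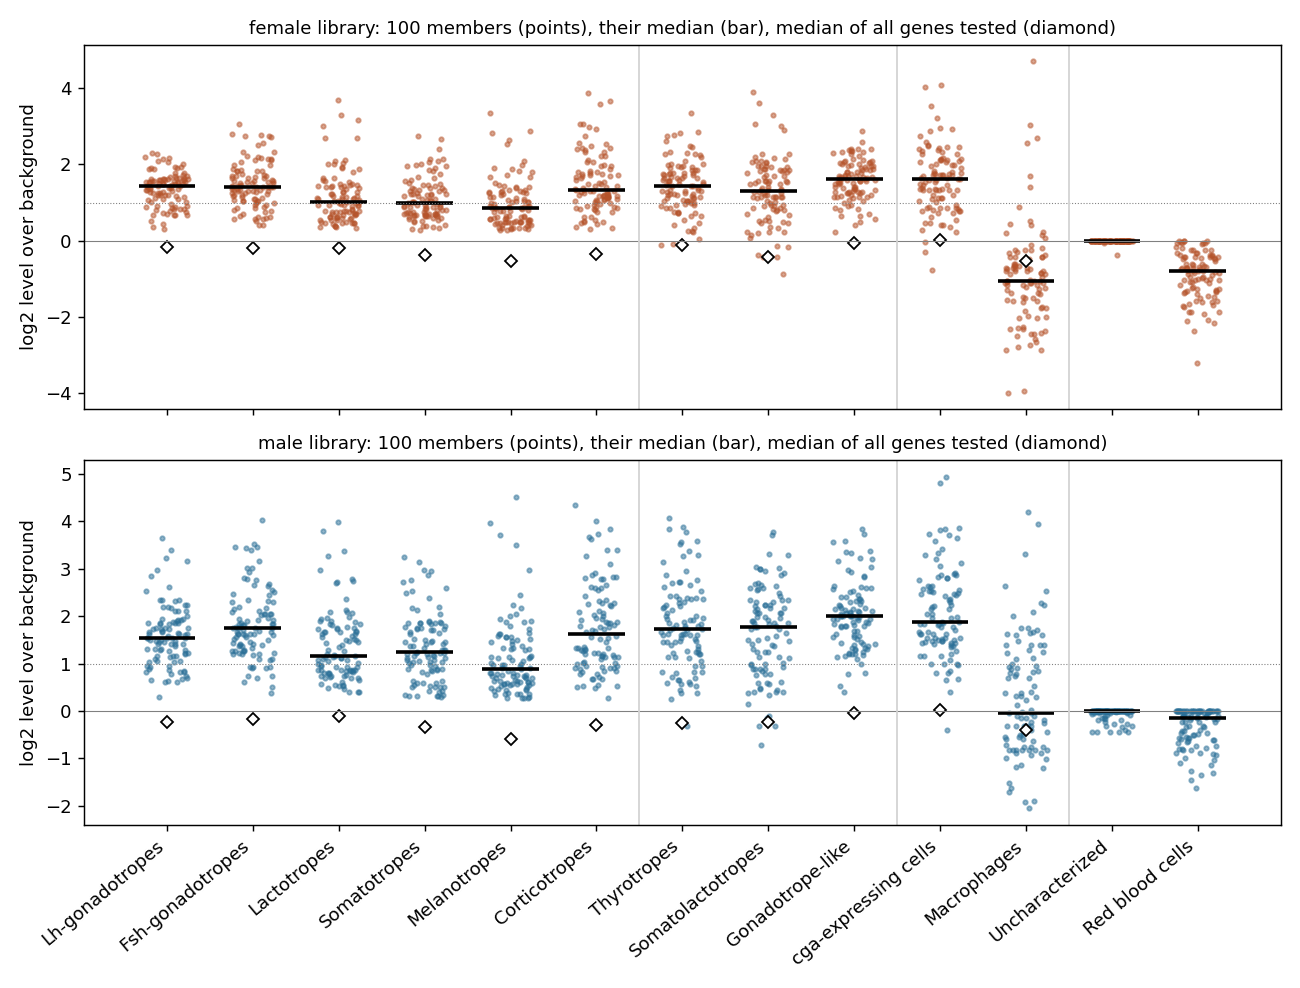
Log2 level of each member (CPM plus 10) over the background of its library, in the 13 annotated types, with the female library above and the male library below. Each point is 1 member, the bar is the median of the 100 members, the diamond the median of all 13036 genes and the dotted line marks 2-fold. Points of the 6 types at the left lie above 0 by the choice of members, and the medians in Thyrotropes, Somatolactotropes and Gonadotrope-like cells lie between 1.30 and 2.0.

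A high rank went with a high ratio to background in these 3 types to a differing degree. Rank and ratio use the same background, so this trend is partly fixed by the ranking. In Thyrotropes, 24 of the members at ranks 1 to 25 were at least 2-fold above background in both libraries, then 18 and 17 of the next 25 each, and 7 of those at ranks 76 to 100. In Somatolactotropes the numbers were 23, 10, 10 and 11, and in Gonadotrope-like cells 25, 22, 19 and 20. At these depths 1 UMI is worth 9.92 CPM in female Somatolactotropes, but 0.39 CPM in female Gonadotrope-like cells. The count in Somatolactotropes rests on 15 female and 38 male cells. Among the male cells, those with at least 10 UMIs of *sl* had a summed member level of 16057 CPM and those without had 10882 CPM, with median depths of 4156 and 2492 UMIs. With the cells below 10 UMIs of *sl* left out, 59 members passed in place of 54. The share of all genes that passed then is not given.

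In Thyrotropes the member furthest above background was ENSORLG00000027839, with 729 CPM in females (248 UMIs) and 561 CPM in males (139 UMIs) over backgrounds of 63.1 and 31.4 CPM. ENSORLG00000010306 was at the other end, with 8.82 CPM in females (3 UMIs) and 0 UMIs in males, which shows no difference from its backgrounds of 5.92 and 2.56 CPM at this depth. In Somatolactotropes, ENSORLG00000001705 reached 1032 CPM in females (104 UMIs, interval 843 to 1250) and 523 CPM in males (79 UMIs, 414 to 652). In females this is above its level in any of the 6 types, whereas in males it lies within their range. ENSORLG00000014716 had 9.92 CPM in female Somatolactotropes, which is 1 UMI, against a background of 26.6 CPM, and 99.3 CPM (15 UMIs) against 7.68 CPM in the male ones. In Gonadotrope-like cells the furthest above background was ENSORLG00000003392, with 640 CPM in females and 468 CPM in males over 78.4 and 36.5 CPM.

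The ranking was also made on 1 library at a time and read in the other. Of the 100 genes ranked highest in the female library alone, 95 had a score above 0 in the male library, compared to 4.57% of all genes, and 29 had a score of at least 1 (0.315%). Of the 100 ranked highest in the male library alone, 78 had a score above 0 in the female library (2.98%) and 14 had a score of at least 1 (0.107%). Each list of 100 shares 52 genes with the other. The median score of the genes taken from the female library went from 0.59 there to 0.67 in the male library, and that of the genes taken from the male library from 0.91 to 0.48 in the female library. The endocrine types outside the ranking can be read in the same manner. Genes ranked in the female library were at least 2-fold above background in male Thyrotropes in 78 cases (5.1%), in Somatolactotropes in 67 (6.14%) and in Gonadotrope-like cells in 91 (6.73%). Genes ranked in the male library gave 78 (4.88%), 63 (5.15%) and 93 (5.54%) in the female library. Here the genes came from one library, and both the levels and the background they were set against came from the other. Both libraries were annotated by the same authors.

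Of the remaining types outside the ranking, cga-expressing cells held most members above background, and Macrophages did not. In cells annotated as cga-expressing cells, which held *cga*, the shared alpha subunit of the glycoprotein hormones, at 61242 CPM in females and 78788 CPM in males but little of any hormone-encoding gene (1.42% and 1.72% of their UMIs), 73 members were at least 2-fold above background in both libraries (6.9% of all genes) and 0 at least 2-fold below (8.54%). Among all 13 types, this type had the highest level for 31 members in females and 38 in males, 25 of them in both. Outside the 6 types of the ranking, 57 members were highest in both libraries. No share of all genes is given for these counts, and levels depend on the total used. Hormone-encoding genes, *cga* and the GFP cassette took 7.94% and 11.5% of the UMIs in cga-expressing cells. With these and the haemoglobin genes out of the total, the summed member level there was 16939 and 18002 CPM. In the 6 types it was then 13994 to 32443 CPM in females and 12898 to 39495 CPM in males. The member furthest above background in cga-expressing cells was ENSORLG00000003392, with 1491 CPM in females (700 UMIs) and 1301 CPM in males (792 UMIs). In Fsh-gonadotropes, the highest of the 6 types, it had 592 and 500 CPM. ENSORLG00000005686 was below background in both libraries, with 175 and 128 CPM against 217 and 172 CPM. As stated above, a member with a background under 10 CPM could not be counted as 2-fold below it, here or in Macrophages. In Macrophages, 5 members were at least 2-fold above (3.74%) and 6 at least 2-fold below background in both libraries (18.6%). Above it by any amount in both were 10 (10.2%), and 43 members were above in one library and not in the other. The median log2 level over background was −1.06 in females (all genes −0.54) and −0.03 in males (−0.41), where 27 members were at least 2-fold above. No share of all genes is given for the 43 and the 27 members, which are a description only. In male Macrophages 1 UMI is worth 22.8 CPM, so a single UMI can pass 2-fold over a low background. The type is small, 15 cells in either library, with a total of 33122 UMIs for the female and 43765 for the male cells, and 77 and 42 members had no UMI in it. ENSORLG00000015279 had 845 CPM in females (28 UMIs) and 503 CPM in males (22 UMIs) and was highest of all types in Macrophages.

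The background itself was uneven. The authors divided the Uncharacterized cells into clusters 13 and 14 and, in males, 21 cells of a cluster 16. The summed level of the members was 4917 CPM in cluster 13 (277 cells, interval 4797 to 5038) and 1795 CPM in cluster 14 (198 cells, 1699 to 1895) of the female library, and 2355 CPM (410 cells, 2276 to 2437) and 1535 CPM (386 cells, 1466 to 1606) in the male library. The 21 male cells of cluster 16 had a higher sum, 5702 CPM (5239 to 6195). The median over members was 10.2 CPM in cluster 16 and 9.86 CPM in male cluster 13. In the 6 types the summed level was between 9284 and 15556 CPM. At least 2-fold higher in cluster 13 than in cluster 14 were 36 members in females (3.47% of all genes) and 14 in males (2.68%), of which 12 in both (1.71%), and 0 were at least 2-fold lower in both (2.08%). A gene under 10 CPM in cluster 14 cannot be 2-fold lower in cluster 13 at a pseudocount of 10. The median over members in cluster 14 was 8.25 CPM in females and 5.32 CPM in males, so this 0 is partly fixed. The median log2 difference of the members was 0.76 in females and 0.28 in males, and that of all genes was −0.03 in both. Levels of *cga* went the same way, with 20654 CPM in cluster 13 and 3001 CPM in cluster 14 in females, and 4809 and 2497 CPM in males. In Red blood cells, haemoglobin genes took 57.7% of the UMIs in females and 53.1% in males, which lowers the CPM of other genes there. With these, the hormone-encoding genes, *cga* and the GFP cassette out of the total, the summed member level in Red blood cells was 2718 and 2840 CPM. In Uncharacterized cells it was then 3984 and 2160 CPM.

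A part of the cells of cluster 13 reached the lower end of the number of members found in cells of the 6 types. In all its cells at the fixed depth, the median was 4 members in females and 3 in males. In females, 45 of its 262 cells with at least 2000 UMIs (17.2%, interval 12.8 to 22.3%) had 12 or more members with a UMI after thinning, which is the 10th percentile of the cells of the 6 types. In cluster 14 it was 0 of 180 cells, which allows a share of up to 1.67%. In males, 18 of 380 cells of cluster 13 (4.74%) and 0 of 347 cells of cluster 14 (up to 0.865%) reached the male 10th percentile of 10 members. In cluster 16 it was reached by 3 of 21 cells (14.3%, interval 3.05 to 36.3%). The 45 female cells held 46.2% and the 18 male cells 20.7% of the member UMIs of cluster 13 at this depth, which follows in part from picking cells with many members. The 45 female cells were deeper than the other 217, with a median of 6909 against 3474 UMIs, and held *cga* at 53063 against 8686 CPM and *lhb* at 14805 against 2546 CPM. The 18 male cells had a median of 4605 UMIs against 2867 in the other 362, with *cga* at 26652 against 2855 CPM. Whether such barcodes held more than 1 cell was not tested. With cluster 13 of the female library left out of the background, a choice made after seeing these values, 26 members had a score of at least 1 in place of 13, and the median score was 0.65. This setting changes the background of every gene, and the share of all genes with such a score under it is not given.

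Members were not at the same level in all 6 types. Over the types of the ranking, the range of the log2 level (CPM plus 10, mean of the libraries) had a median of 1.17 and ran from 0.37 for ENSORLG00000018474 to 2.75 for ENSORLG00000020544. It was below 1 for 34 members and at least 2 for 8. The level of ENSORLG00000020544 was 870 CPM in female and 475 CPM in male Corticotropes, with the next highest types at 346 and 194 CPM (Fsh-gonadotropes) and the lowest at 75.1 and 101 CPM (Melanotropes). ENSORLG00000018474 was between 26.3 and 45.3 CPM in females and between 12.7 and 25.6 CPM in males.

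Melanotropes were most often the lowest of the 6 types, for 43 members in females and 50 in males, followed by Somatotropes (21 and 17) and Lactotropes (17 and 21). Corticotropes (31 and 30) and Fsh-gonadotropes (25 and 35) were most often the highest. No share of all genes is given for these counts of lowest and highest types, here or below. The median log2 level over background of all genes was lowest in Melanotropes too, at −0.53 in females and −0.59 in males. A low level in Melanotropes is thus not particular to the members. The order of the types depends on the total to which the levels are referred. In Melanotropes, *pomca*, *cga* and the other hormone-encoding genes with the GFP cassette took 58.6% of all UMIs in females and 67.6% in males, compared to between 25.7% and 27.8% in the other 5 female types and between 20.9% and 39.0% in the male ones. With these genes and the haemoglobin genes taken out of the total, Melanotropes were the lowest type for 4 and 2 members and the highest of the 6 for 30 and 33. The summed level of the members was then 32443 CPM in female and 39495 CPM in male Melanotropes, above each of the other 12 types, whereas over all UMIs it was 13426 and 12767 CPM. Of the sum over all UMIs, ENSORLG00000026625 and ENSORLG00000024375 held 3989 and 1638 CPM in females, and 3408 and 2903 CPM in males. The sum is thus weighted towards a few members with many UMIs. Over all genes, the total without these hormone-encoding and other genes raised the median log2 level in Melanotropes by 0.60 in females and 0.69 in males. With the same total, 36 members had a score of at least 1, but this total changes the level of every gene. The share of all genes with such a score is not given for it.

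Lactotropes, which hold *prl*, were divided by the authors into clusters 3 and 4, and the members were higher in cluster 3 of both libraries. Their summed level was 14777 CPM in cluster 3 (123 cells) and 9936 CPM in cluster 4 (69 cells) in females, and 14018 CPM (175 cells) and 9081 CPM (222 cells) in males. Of the 100 members, 87 in females and 90 in males were higher in cluster 3, with a median log2 difference of 0.49 and 0.46, where that of all genes was −0.16 and −0.13. The share of all genes that were higher in cluster 3 by any amount is not given here. The difference reached 2-fold for 3 members in each library (0.253% of all genes in females and 0.161% in males), but for 0 in both (0.023%), and no member was 2-fold lower in both (5.02%). Cells of cluster 3 were shallower (median depth 5829 in the female and 3956 in the male library) than those of cluster 4 (9911 and 8315). Their *prl* level was 340586 against 172310 CPM in females and 325299 against 156640 CPM in males. The part of depth in this difference was not tested.

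Between the libraries, most members were slightly lower in males. In none of the 100 members was the level at least 2-fold higher in one library in 4 or more of the 6 types, but this was as rare among all genes, with 0.0307% higher in females and 0% in males. The median log2 difference of male over female over the 6 types was below 0 for 92 members (55.9% of all genes), and its median was −0.18 for the members and −0.02 for all genes. Since a member needs a score in both libraries, and the female score was most often the lower, the direction is not independent of the ranking. It was beyond 0.5 in size for 6 members. The furthest to the female side was ENSORLG00000010871 at −0.80, with a mean over the 6 types of 32.9 CPM in females and 15.2 CPM in males, but its counts were 7 and 4 UMIs in Corticotropes and 16 and 7 UMIs in Fsh-gonadotropes. The furthest to the male side was ENSORLG00000006250 at 0.26, with 18.5 and 32.5 CPM.

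**Figure D5:**
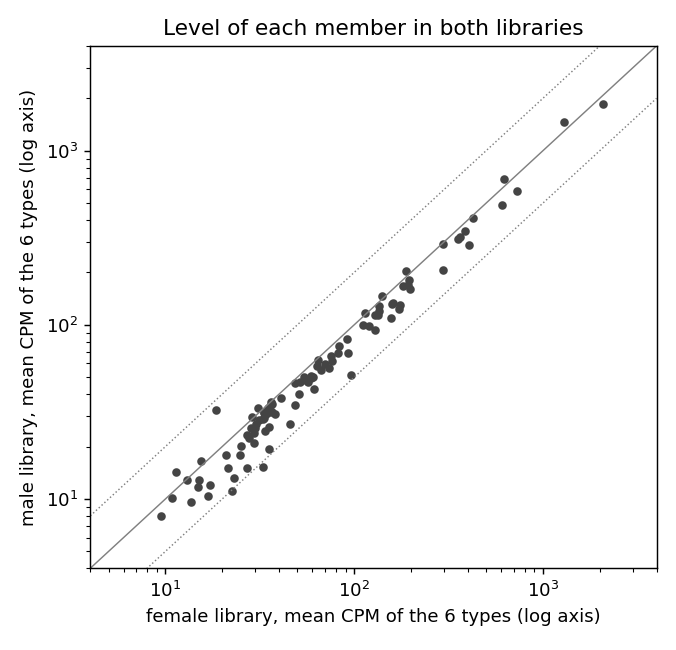
Mean level of each member over the 6 types in the male library (y axis, CPM, log axis) against the female library (x axis, CPM, log axis). The solid line marks equal levels and dotted lines mark 2-fold. Of the 100 points 89 lie on the female side of equality, and 2 lie beyond the 2-fold line.

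The libraries differed more in the background. In Uncharacterized cells, 9 members were at least 2-fold higher in females (0.514%) and 0 in males, with a median log2 difference of male over female of −0.42 for the members and −0.04 for all genes. Within cluster 13 this median was −0.56, with 18 members at least 2-fold higher in females (1.07%), and within cluster 14 it was −0.13, with 1 member (0.376%). In Gonadotrope-like cells, by comparison, the median difference was 0.00, with no member beyond 2-fold. The same values for Thyrotropes and Somatolactotropes are not given here.

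Exon counts covered most of the UMIs of most members. The median share of exon counts in the UMIs of a member was 94.5% in the female and 96.4% in the male library, where all genes had medians of 86.3% and 89.6%. At least 50% was reached by 88 and 90 members (71.2% and 75.4% of all genes), and the lowest member had 4.52% and 6.39%. Intron counts of a member reached up to 332% of its UMIs in the female and 405% in the male library. Exon, intron and spanning counts therefore do not divide the UMIs of a gene into parts. When the ranking was made on exon counts alone, 81 of the members remained among the first 100.

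Over the 26 pairs of type and library, the levels of the members followed each other. Pearson's r between the log2 level of a member and the median of all members had a median of 0.85, compared to a median of 0.25 over all genes. It was at least 0.8 for 67 members, and the share of all genes at this level is not given. Each member is part of the median it is set against. The lowest value of a member was 0.15 for ENSORLG00000003151, at rank 98. Of the genes that are not members, the most alike was ENSORLG00000008778 (r = 0.93, rank 114), followed by ENSORLG00000009101 (r = 0.93, rank 172). These values are a description, since the pairs share libraries and totals and the members were chosen on most of these levels.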

How the data were processed

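Data from 1 female and 1 male library, each a pool of fish, were used as the authors deposited them: raw UMI count matrices (genes by cells), separate exon, intron and spanning count tables, and a cluster and type per cell. The processing notes name Cell Ranger and Seurat, and likely doublets had been taken out by the authors, according to the study's methods. The matrices rest on a genome build not given in the sources used here. Per-cell sums of the matrices equal the deposited totals, which set the depth of each type and so the counting intervals. In males 1 cell, spelled differently, was joined with the Lh-gonadotropes. The annotation has 13 types, so likeness was computed over 26 pairs of type and library in place of the 24 planned. Marker tables were used only for genes to leave out, and their fold and test columns were not used.

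CPM were computed from UMIs summed by type, with a pseudocount of 10 on the log2 scale. A call is a 2-fold difference, and the share of all genes called was taken over genes with at least 10 UMIs in each library. Thinning to 2000 UMIs used a fixed seed. The calculation of the ranking was checked on simulated counts with Poisson error only and known fold differences. Its outcome is not given here, and it gives no measure of error for the members. Members and lists were chosen with earlier results of these data known. Named genes are the ends of each comparison by the stated measure, at most 2 high and 2 low, fewer than the rule written for this work names, because no table used here pairs the identifiers with names (0 matched the RefSeq table). Pathway lists, cell type marker lists and sequences were not analysed here for that reason. Alternatives change 1 choice at a time. Python 3.11.15 was used with numpy 2.4.6, scipy 1.17.1, pandas 2.3.3 and matplotlib.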

Additional observations from a re-analysis of the deposited data

Results flagged for a closer look

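ENSORLG00000026625, the member with the most UMIs, lay on opposite sides of the background in the Macrophages of the 2 libraries. Its log2 level over background was −1.59 in females (4 UMIs) and 1.25 in males (15 UMIs), with counting intervals apart from that of the background in each library. The Macrophage levels themselves were 121 CPM in females (interval 32.9 to 309) and 343 CPM in males (192 to 565), and these intervals overlap. Female Red blood cells, the lower of the background types, also had 121 CPM (84.9 to 168). The difference between the libraries was not tested, since each sex is 1 library. Macrophages are 15 cells in either library, and the background of this gene was 383 CPM in female and 138 CPM in male Uncharacterized cells.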

How the results depend on the processing

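Both the list of members and the counts in types outside the ranking depended on the processing. With hormone-encoding genes, *cga*, the GFP cassette and haemoglobin genes taken out of the total, 65 of the 100 members remained in the first 100. After thinning to 2000 UMIs 58 remained, with the male library alone 56, and without cluster 13 of the Uncharacterized cells of both libraries, chosen after seeing the data, 63. Under the other 14 settings between 70 and 94 remained. A pseudocount of 50 lowered the members at least 2-fold above background in both libraries to 31 in Thyrotropes, 26 in Somatolactotropes and 37 in Gonadotrope-like cells, and the other settings gave 60 to 83, 48 to 66 and 81 to 93. The share of all genes is not given for these other settings, which change the calls of every gene. No setting gave a member 2-fold apart between the libraries in 4 of the 6 types. Members with a median male level below the female numbered 76 to 92, with all genes at 39.1% to 55.9%. No paired analysis was possible because each sex is 1 library. Low counts limit the members of low rank, and Macrophages and Somatolactotropes have few cells.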
